A study of Rattus norvegicus with 6 samples.

Results

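The genes described here are 6 ADAMTS proteases (Adamts1, Adamts4, Adamts5, Adamts7, Adamts9 and Adamts10) and 3 TIMP inhibitors (Timp1, Timp2 and Timp3), 9 of the 33350 gene models in the table. They were chosen by symbol with results of these libraries already known. Where a symbol had several rows, the row was to be selected on its mean FPKM (reads scaled to gene length and library size) over the 6 libraries, but each symbol had 1 row. The p-values below come from a fit over all tested genes. They describe single genes and give no evidence on the 9 as a group.

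RNA was sequenced from 6 rat libraries labelled PC12, an adrenal pheochromocytoma line. The 3 EC libraries came from cells given exosomes of control endothelial cells. The 3 EN libraries came from cells given exosomes of endothelial cells with high expression of netrin-1 (NTN1). Dose and time of the exosome treatment and the origin of the endothelial cells are not stated in the labels, and all 6 libraries received exosomes, so there is no untreated group. Whether the replicates were separate cultures is not stated either, so p-values measure the spread between these libraries, which may be technical.

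ADAMTS proteases are secreted zinc metalloproteases that carry thrombospondin type 1 repeats and cut matrix proteins. Several of them, among them ADAMTS1, ADAMTS4, ADAMTS5 and ADAMTS9, cut the core proteins of the large chondroitin sulfate proteoglycans, such as aggrecan and versican, which restrain axon growth in the nervous system. TIMPs are small secreted proteins that block metalloproteases. TIMP3, which binds to the matrix, is the TIMP best known for blocking ADAMTS proteases, while TIMP1 and TIMP2 act mainly on matrix metalloproteinases.

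Reads worked back from FPKM and summed over gene models were 15296193 to 16165804 in EC and 16654025 to 19626012 in EN. Every EN library thus had more reads on genes than every EC library. Total sequenced reads were not available. Genes that define chromaffin cells, the cell type of the label, were low in both groups. Their summed level over 12 genes was 2.22 to 2.79 FPKM in EC and 2.88 to 3.30 in EN, and Pnmt and Hand2 were among those at 0 in every library. Schwann cell markers summed to 476.5 to 484.8 FPKM over 12 genes in EC and 420.2 to 452.6 in EN, led by S100b, Ngfr and Sox10. Of 10 tested genes 6 were lower in EN, S100b among them, and 1, Ngfr, was higher, while Sox10 did not pass. Over all tested genes 7.14% were lower and 7.24% higher. With either EC replicate 2 or EN replicate 2 left out, 4 Schwann cell markers were lower and 0 higher. In these settings calls over the whole table fell to 347 and 345 from 1754. Endothelial markers summed to 3.19 to 4.10 FPKM over 9 genes in EC and 3.22 to 3.75 in EN, with Cldn5 at 0, and 0 of 2 tested genes passed. Fibroblast markers summed to 113.5 to 117.9 and 120.1 to 122.4 FPKM over 10 genes, and macrophage markers to 36.9 to 39.6 and 34.8 to 35.9 FPKM over 9 genes. These sums rested on few genes. Of the fibroblast markers 2 averaged 10 FPKM or more and 6 were below 1 FPKM. Of the macrophage markers 1 averaged 10 FPKM or more and 7 were below 1 FPKM. The part of these marker levels in the results below was not tested, and in bulk RNA fewer cells of a type and less RNA per cell cannot be told apart.

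Setting EN against EC addresses how transcripts of the recipient cells differed with the netrin-1 level of the cells that made the exosomes. Adamts1, the most abundant ADAMTS transcript here, was lower in EN by 2.02-fold in mean FPKM. Adamts4 was higher by 1.32-fold. Timp2, the dominant TIMP transcript, had a somewhat higher mean in EN but did not pass the test. Timp1 had 1 or 2 reads per library in EC. It was 5.76-fold higher by mean in EN, at a level too low for the main test. Adamts7, Adamts9, Adamts10 and Timp3 did not pass. Of the 9 genes, 7 were high enough to be tested (a mean of at least 1 FPKM). Of these, 1 was lower and 1 higher (limma, adjusted p under 0.05). Over all 12198 tested genes, 14.4% passed, 7.14% lower and 7.24% higher. The libraries of EC and EN did not overlap in 37.9% of all tested genes.

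The sequence before the transcription start is shown for Adamts1, Adamts4 and Timp1, since these members differed in direction or size between the groups. Each is the 250 bases upstream of the RefSeq start on the GRCr8 assembly, 5′ to 3′ on the gene's strand, a build other than the Rnor_6.0 build used for the expression values. The promoter table held 8 of the 9 members by symbol. Capitals mark matches on either strand to any of 5 motifs: AP-1 (TGANTCA), the TATA box (TATAAA), the GC box (GGGCGG), the TEAD motif (GGAATG) and the CCAAT box (CCAAT). No 2 of these motifs overlap in the 3 windows.
Adamts1 (chr11:38427385-38427634, minus strand): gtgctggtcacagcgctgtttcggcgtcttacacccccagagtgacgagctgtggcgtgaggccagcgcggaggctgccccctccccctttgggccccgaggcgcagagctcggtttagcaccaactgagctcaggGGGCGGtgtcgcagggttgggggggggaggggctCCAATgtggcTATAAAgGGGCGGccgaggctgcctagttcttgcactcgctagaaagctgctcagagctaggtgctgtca
Adamts4 (chr13:86202761-86203010, plus strand): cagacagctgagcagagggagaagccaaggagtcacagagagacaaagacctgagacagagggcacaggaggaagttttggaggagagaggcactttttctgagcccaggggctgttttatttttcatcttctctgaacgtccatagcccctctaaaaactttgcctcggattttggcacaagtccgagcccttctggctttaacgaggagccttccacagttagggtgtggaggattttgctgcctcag
Timp1 (chrX:3771123-3771372, minus strand): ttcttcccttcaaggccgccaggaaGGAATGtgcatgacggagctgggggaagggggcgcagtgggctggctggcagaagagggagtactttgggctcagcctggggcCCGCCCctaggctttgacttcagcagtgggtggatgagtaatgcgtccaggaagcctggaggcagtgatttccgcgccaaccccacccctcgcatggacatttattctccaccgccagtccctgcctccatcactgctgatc

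In the Adamts1 window a CCAAT box began at -80, a TATA box at -70 and GC boxes at -114 and -63, counted in bases from the start. The Timp1 window held a GC box at -142 and a TEAD motif at -225, and no TATA box. In the Adamts4 window none of the 5 motifs was found. Of 33469 rat promoters cut to the same 250 bases, 12.9% held the TATA box, 30.5% the GC box, 34.0% the CCAAT box, 12.1% the TEAD motif and 6.34% the AP-1 motif. The 3 windows also differed in base composition, with 65.2% G and C and 15 CpG pairs for Adamts1, 61.2% and 9 for Timp1, and 51.2% and 4 for Adamts4. The median over all promoters was 51.2% G and C and 5 CpG pairs. These matches describe letters only, and binding was not measured.

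Adamts1 encodes a protease that cuts aggrecan, versican and thrombospondins, and lies on chromosome 11 at 25342126 to 25350974 on the minus strand of Rnor_6.0. Its level was 57.5, 55.8 and 59.0 FPKM in EC replicates 1 to 3, and 29.0, 28.8 and 27.6 FPKM in EN replicates 1 to 3. Every EN library was below every EC library by a wide margin, and the libraries of a group lay close together. The group levels were 57.4 ± 1.596 FPKM in EC, against 28.4 ± 0.740 FPKM in EN (SD, n = 3 each). This is a difference of -0.99 (SE 0.041, 95% interval -1.08 to -0.89) on the log2(FPKM + 1) scale, which understates differences of low genes (limma with Benjamini-Hochberg adjustment, adjusted p = 3.18e-04). Between 2011 and 4184 reads per library stood behind these values. Among the 12198 tested genes, Adamts1 had the smallest p and the change ranked 37 among decreases. With each library left out in turn the log2 change was -1.01 to -0.97 and the adjusted p was at most 0.0053.

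**Figure D1:**
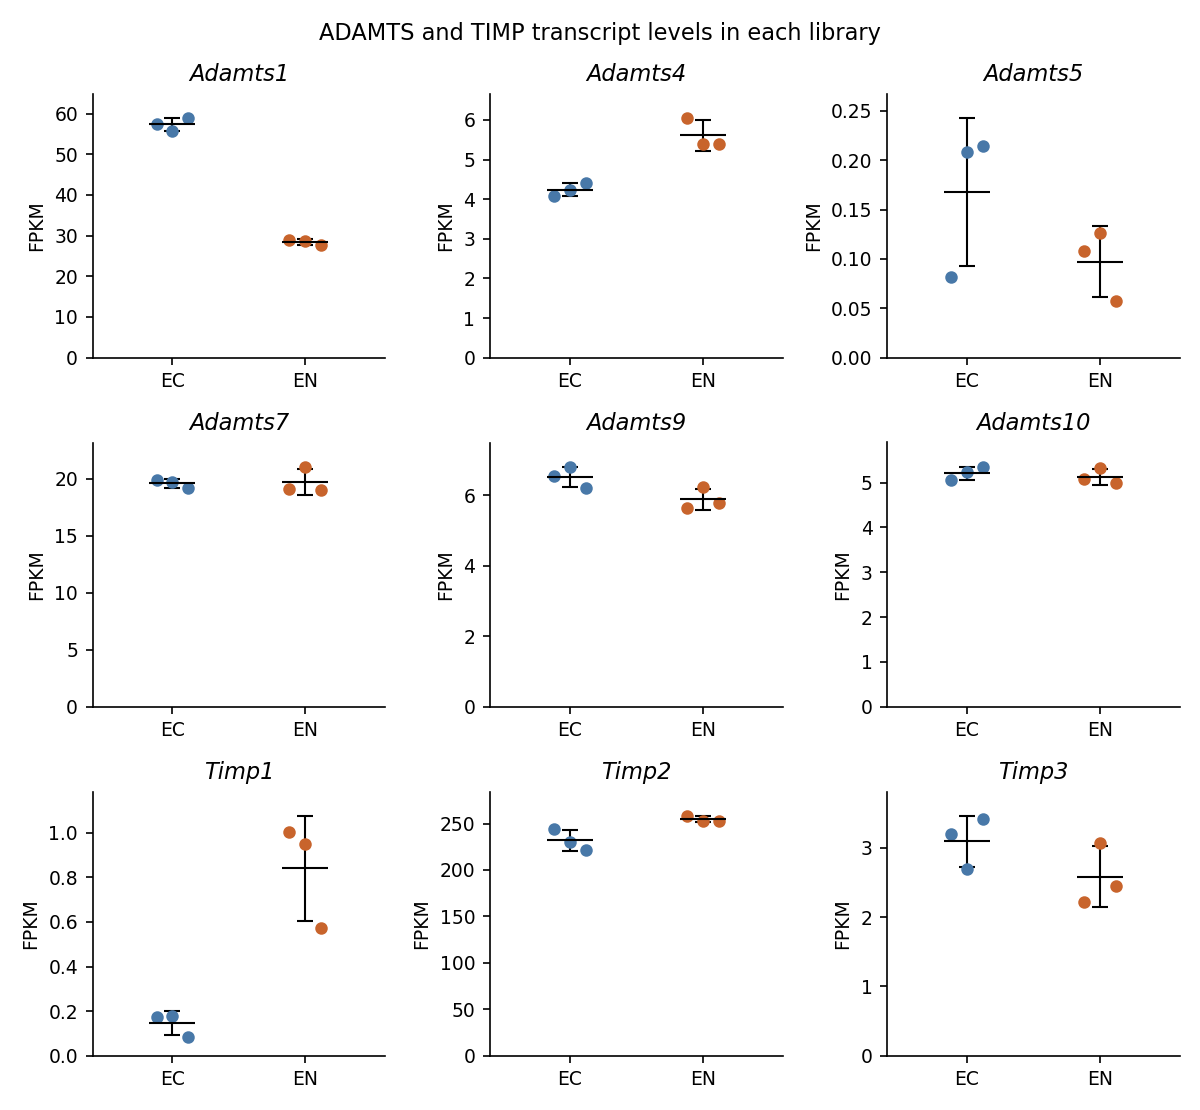
FPKM (vertical axes, each from 0) of the 9 genes in the EC and EN libraries. Points are single libraries, horizontal bars are group means and error bars are SD (n = 3 each). The EN points of Adamts1 lie between 27.6 and 29.0 FPKM, below all EC points, while those of Adamts4 and Timp1 lie above all EC points.

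Adamts4, also known as aggrecanase-1, lies on chromosome 13 at 89622632 to 89634419, plus strand. Its level was 4.09, 4.23 and 4.40 FPKM in the EC libraries and 6.06, 5.39 and 5.39 in the EN libraries. All EN libraries were above all EC libraries (37.9% of all tested genes had groups without overlap), and EN replicate 1 was the highest. The means were 4.24 ± 0.159 and 5.61 ± 0.389 FPKM (SD, n = 3 each). The difference on the log2 scale was 0.33, with an SE of 0.076 (limma adjusted p = 0.032). Of the fits with 1 library left out, this call held only in that without EN replicate 3. With EC replicate 1, 2 or 3 left out the adjusted p was 0.065, 0.1004 or 0.082. With EN replicate 1 or 2 left out it was 0.1001 or 0.088. The log2 change was 0.29 to 0.36 with each library left out. Calls over the whole table, 1754 with all 6 libraries, were 1614, 347 and 409 without EC replicates 1, 2 and 3. They were 446 and 345 without EN replicates 1 and 2.

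Adamts5, or aggrecanase-2, is the neighbour of Adamts1 on chromosome 11 (25410975 to 25456836, also on the minus strand), 60000 bases away with no other gene model between them. Despite this closeness its level was far below that of Adamts1. It had 4, 10 and 11 reads in the EC libraries, or 0.0816, 0.208 and 0.215 FPKM, and 6, 8 and 3 reads in the EN libraries, or 0.108, 0.126 and 0.0570 FPKM. The groups overlapped, and the gene was below the minimum for the main test. Summed reads were 25 in EC and 17 in EN, a ratio of read rates of 0.587 with an exact 95% counting interval of 0.298 to 1.13 (exact two-sided permutation p = 0.3 over libraries, where 3 against 3 cannot go below 0.1). No difference was detectable at this depth.

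Adamts9 also cuts versican and aggrecan and is on chromosome 4 (124660262 to 124858250). It was at 6.56, 6.79 and 6.21 FPKM in EC and 5.63, 6.22 and 5.79 in EN, with EN replicate 2 just above EC replicate 3. The log2 change was -0.13 (95% interval -0.29 to 0.032, limma adjusted p = 0.239).

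Adamts7, which cuts cartilage oligomeric matrix protein, is on chromosome 8 (97535777 to 97575655) and was the second ADAMTS gene by level in both groups. Its libraries were at 19.9, 19.7 and 19.1 FPKM in EC and 19.1, 21.1 and 19.0 in EN, and the groups overlapped. The log2 change was 0.0074 with a 95% interval of -0.12 to 0.13 (limma adjusted p = 0.940). Adamts10, which acts on fibrillin microfibrils, is on chromosome 7 (18409147 to 18439012). It was at 5.05, 5.24 and 5.34 FPKM in EC and 5.07, 5.32 and 4.99 in EN. The groups overlapped here too, with a log2 change of -0.020 (95% interval -0.18 to 0.14, limma adjusted p = 0.863). For these 2 genes the intervals exclude changes as large as that of Adamts1.

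**Figure D2:**
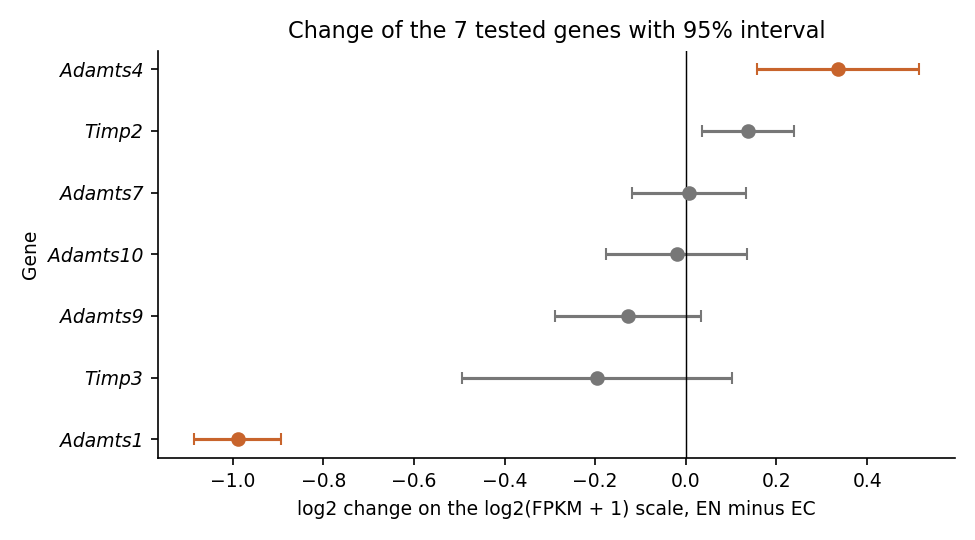
Log2 change of EN minus EC on the log2(FPKM + 1) scale (horizontal axis) for the 7 tested genes (vertical axis). Points are limma estimates, bars are 95% intervals (3 libraries per group) and coloured points passed an adjusted p of 0.05. Adamts1 stands at -0.99 and Adamts4 at 0.33, while the other 5 lie between -0.20 and 0.14.

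Timp2, which blocks matrix metalloproteinases and also takes part in the activation of pro-MMP2 at the cell surface, is on chromosome 10 (107338465 to 107386072, minus strand). It was by far the highest of the 9 genes, at 244, 229.9 and 222 FPKM in EC and 259, 253 and 253 in EN. All EN libraries were above all EC libraries (37.9% of all tested genes had groups without overlap), but the nearest were 244 and 253 FPKM. The means were 231.8 ± 11.4 and 254.9 ± 3.23 FPKM (SD, n = 3 each). The difference of 0.14 on the log2 scale (SE 0.043) did not pass (limma adjusted p = 0.075). It passed without EC replicate 1 (adjusted p = 0.038), the highest EC library, with array weights (adjusted p = 0.022) and with limma voom on whole reads (adjusted p = 0.025). Calls over the whole table were 3849 with array weights and 2347 with voom, against 1754 in the main fit. In all other alternatives Timp2 did not pass, with a limma adjusted p of up to 0.201, reached without EC replicate 3. A low gene model on the same strand, Cep295nl, overlaps Timp2, at 0.424 FPKM in EC and 0.497 in EN.

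Timp3 is on chromosome 7 (23544215 to 23594133, minus strand) and was far below Timp2. Its libraries were at 3.19, 2.69 and 3.41 FPKM in EC and 2.22, 3.07 and 2.45 in EN, on 68 to 107 reads each. The groups overlapped, with EN replicate 2 within the EC range. The log2 change was -0.20 with a 95% interval of -0.49 to 0.10 (limma adjusted p = 0.323). Syn3, a synapsin gene on the other strand, spans the same region at 0.403 FPKM in EC and 0.311 in EN.

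Timp1 is on chromosome X (1364786 to 1369384, minus strand). It had 2, 2 and 1 reads in the EC libraries, or 0.175, 0.179 and 0.0839 FPKM, and 13, 14 and 7 reads in the EN libraries, or 1.00, 0.95 and 0.571 FPKM. The nearest libraries had 7 reads in EN and 2 in EC. All EC values lay below the level that 3 reads would give, 0.204 to 0.268 FPKM across the libraries. Over the group, 5 reads stood against 34, a ratio of read rates of 5.87 with an exact 95% counting interval of 2.29 to 19.2. Its mean of 0.494 FPKM kept it out of the main test, and the exact two-sided permutation p was 0.1, the smallest that 3 against 3 allows. Without the expression minimum it passed (limma adjusted p = 0.033), with a log2 change of 0.68 on the log2(FPKM + 1) scale and 1.93 with a pseudocount of 0.1. Timp1 overlaps Syn1, the synapsin 1 gene, on the other strand, which stood at 18.6 FPKM in EC and 20.0 in EN. Whether the counting used strand is not given in these sources, so reads of the 2 genes may not be told apart.

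FPKM is a level per gene length, so the members can be ordered. In EC the order was Timp2, Adamts1, Adamts7, Adamts9, Adamts10, Adamts4, Timp3, Adamts5 and Timp1, and of neighbours in this order, Adamts5 and Timp1 alone overlapped in their libraries. In EN the order was Timp2, Adamts1, Adamts7, Adamts9, Adamts4, Adamts10, Timp3, Timp1 and Adamts5, and Adamts9 and Adamts4 alone overlapped. Adamts4 thus moved past Adamts10, and Timp1 past Adamts5.

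The levels were also summed by family, as a description with no test. The 6 ADAMTS genes summed to 93.2, 92.0 and 94.3 FPKM in EC and 64.9, 66.9 and 62.8 in EN, while the sum without Adamts1 was 35.3 to 36.2 in EC and 35.2 to 38.1 in EN. The lower sum in EN thus lay in Adamts1, whose share of the ADAMTS sum was 61.6% ± 0.945 in EC, against 43.8% ± 0.803 for EN (SD, n = 3 each). Adamts7 made up 21.0% ± 0.634 and 30.4% ± 1.05 of that sum, and Adamts4 4.55% ± 0.147 and 8.66% ± 0.644. The 3 TIMP genes summed to 225.0 to 247.4 FPKM in EC and 256.2 to 261.8 in EN, of which Timp2 was 98.4% to 98.8% in each library. The TIMP sum was 2.39 to 2.66 times the ADAMTS sum in EC and 3.84 to 4.08 times in EN. These are transcript levels, and neither protein nor protease activity was measured here.

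**Figure D3:**
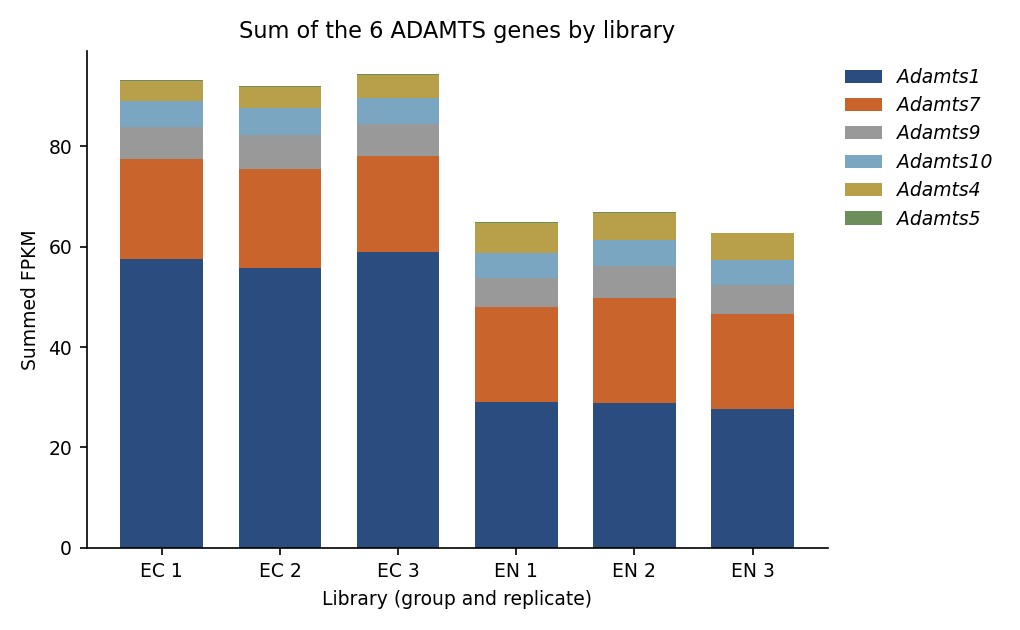
Summed FPKM (vertical axis, from 0) of the 6 ADAMTS genes in each library (horizontal axis), with the part of each gene in colour. The EC bars reach 92.0 to 94.3 FPKM and the EN bars 62.8 to 66.9, and the Adamts1 part is the one that visibly shrinks.

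Genes around these families were read from 6 lists with 87 entries, of which 83 were in the table and 38 were tested. Of the 38, 5 were higher in EN, 6 were lower and 27 did not pass, with a median log2 change of -0.049 against -0.0028 over all 12198 tested genes, of which 7.24% were higher and 7.14% lower. Without EC replicate 2 or EN replicate 2 the numbers were 1 higher and 3 lower, and without EC replicate 3 or EN replicate 1 they were 2 higher and 3 lower. In these settings the calls over the whole table fell from 1754 to between 345 and 446. The calls of Thbs1, Bgn and Mmp15 held with each library left out.

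Among 12 other ADAMTS genes in the table, Adamts20 and Adamts6 were tested and neither passed, and 10 were below the minimum. Adamts20, a versican-cutting protease, was the highest, with means of 6.67 ± 0.227 FPKM (EC) and 6.01 ± 0.152 FPKM (EN; SD, n = 3 each). No read was counted for Adamts15 or Adamts19 in any library. ADAMTS-like proteins and papilin carry the ADAMTS accessory domains but no protease domain. Papilin (Papln) was below the minimum. Of 4 tested ADAMTS-like genes 1 was lower, beside 7.14% of all tested genes. The lower gene was Adamtsl3, at 39.2, 40.4 and 41.4 FPKM in EC and 34.4, 34.2 and 35.9 in EN. The log2 difference of -0.21 had an SE of 0.041 (limma adjusted p = 0.023). This call was lost with EC replicate 2 or 3 left out (adjusted p = 0.086 or 0.084) and with EN replicate 1 or 2 left out (0.076 or 0.092).

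Of 12 tested substrates and cofactors, 2 were higher, 2 were lower and 8 missed the threshold (median -0.030). Over all tested genes, 7.24% were higher and 7.14% lower. Thbs1, thrombospondin 1, which ADAMTS1 can cut, was 1.70-fold lower in mean FPKM. Bgn, the small proteoglycan biglycan, was at 402, 425 and 419 FPKM in EC and 295, 303 and 298 in EN, or -0.47 on the log2 scale with an SE of 0.035 (limma adjusted p = 0.0013). Nid2, the basement membrane protein nidogen-2, was higher at 13.1 ± 0.549 against 11.2 ± 0.221 FPKM, and Hapln4, a link protein that joins proteoglycans to hyaluronan, at 29.0 ± 1.40 against 25.4 ± 0.491 (SD, n = 3 each). Both calls were close to the threshold, with limma adjusted p of 0.038 and 0.046. EN replicate 3 was the only library that could be left out without losing them. Leaving out EC replicate 1, 2 or 3, or EN replicate 1 or 2, gave an adjusted p of up to 0.118 for Nid2 and 0.147 for Hapln4. Versican itself (Vcan, named after its values were seen) did not pass, at 68.5 ± 3.40 FPKM in EC against 61.8 ± 3.02 FPKM in EN (adjusted p = 0.108). Aggrecan (Acan, named likewise) was below the minimum.

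Of genes that activate, clear or block metalloproteases, 8 were tested. Of these, 1 was higher, 2 were lower and 5 missed the threshold, beside 7.24% higher and 7.14% lower over all tested genes. Reck, a membrane-anchored inhibitor of matrix metalloproteinases, was at 34.7, 39.2 and 40.3 FPKM in EC and 29.3, 30.8 and 26.7 in EN. All EN libraries were lower (37.9% of all tested genes had groups without overlap). The log2 difference was -0.38 with an SE of 0.074 (limma adjusted p = 0.021). Furin, a convertase that removes the propeptide of many ADAMTS proteases, was higher, at 46.8 ± 1.19 against 39.3 ± 2.03 FPKM (adjusted p = 0.022). The Reck and Furin calls were lost when EC replicate 2 or 3, or EN replicate 1 or 2, was left out, the adjusted p then being at most 0.082 for each. Serpine2, the most abundant gene of the list, did not pass, with means of 1815 ± 40.3 FPKM in EC and 1659 ± 24.1 FPKM in EN (adjusted p = 0.061). In each of those 4 cases this list had 0 higher and 1 lower.

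Matrix metalloproteinases, the main targets of TIMP1 and TIMP2, had 2 of 5 tested genes higher and none lower, with a median log2 change of 0.19, beside 7.24% higher and 7.14% lower over all tested genes. Mmp15, a membrane-bound member, was at 18.5, 18.7 and 17.4 FPKM in EC and 24.0, 24.5 and 24.6 in EN, or 0.40 on the log2 scale with an SE of 0.045 (limma adjusted p = 0.0054). Mmp3, stromelysin-1, was low but 2.32-fold higher by mean, at 0.988, 1.28 and 1.53 FPKM in EC and 2.58, 3.06 and 3.18 in EN, on 26 to 104 reads per library. Its limma adjusted p was 0.016, and 0.060 without EC replicate 2 or 0.066 without EN replicate 2, so that Mmp15 alone passed in either case. Mmp19 was the highest of the list, at 41.8 ± 3.40 and 42.1 ± 2.42 FPKM (SD, n = 3 each), and did not pass.

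Of 7 tested ADAM proteases, membrane-bound relatives of which some are blocked by TIMP3, 1 was lower and 6 did not pass (median -0.11). The share over all tested genes was 7.14% lower and 7.24% higher. Adam9 was at 34.3, 31.9 and 31.6 FPKM in EC and 27.9, 29.2 and 27.7 in EN (log2 change -0.20, limma adjusted p = 0.038). That call was lost with any 1 library left out, with adjusted p from 0.064 to 0.110. Adam17, the highest of the list, was at 60.2 ± 0.705 and 56.2 ± 2.91 FPKM (SD, n = 3 each; adjusted p = 0.181).

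**Figure D4:**
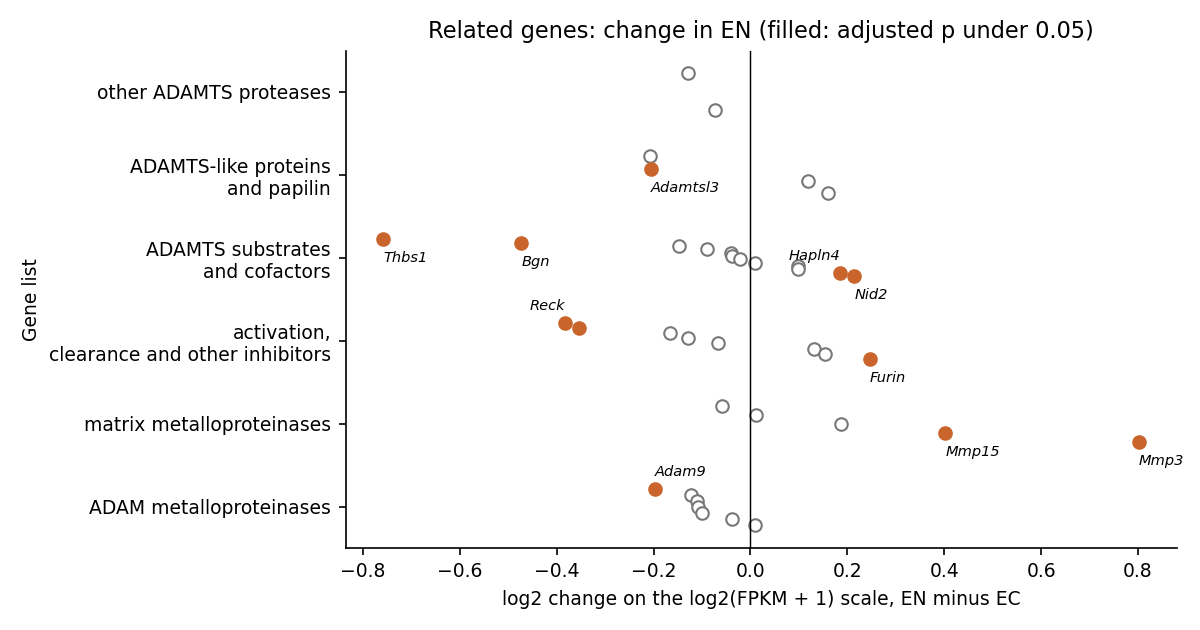
Log2 change of EN minus EC on the log2(FPKM + 1) scale (horizontal axis) for the 38 tested genes of 6 related lists (vertical axis). Each point is 1 gene; filled points passed an adjusted p of 0.05 in limma, with those described in the text named, and open points did not. The filled points run from Thbs1 at -0.76 to Mmp3 at 0.80.

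The genes most like Adamts1 over the 6 libraries, among tested genes that averaged 5 FPKM or more, were Stard4, Igsf11 and Tgfb2. Their Pearson correlations on the log2(FPKM + 1) scale were 0.999, 0.999 and 0.997. Stard4 averaged 22.1 ± 0.195 FPKM (EC) and 15.3 ± 0.337 FPKM (EN; SD, n = 3 each). With 2 groups of 3 libraries, a gene that is lower in EN with little spread correlates highly with Adamts1, and 45 genes exceeded 0.99. For Timp3 the most similar were Fubp1, Enthd2 and Chfr, with correlations of 0.989, 0.982 and 0.980, and none exceeded 0.99. The points share library depth and scaling, and the values are descriptions over 6 libraries.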

How the data were processed

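RNA of 6 libraries in 2 groups of 3 was measured. Per the labels' protocols, libraries were made from 1 ug of total RNA with an Illumina TruSeq RNA kit. The authors deposited 1 table of FPKM for 33350 gene models. The submitters' processing notes name HISAT2 2.0.5 and Rnor_6.0; how reads were counted, with or without strand, is not given in the sources used here.

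Whole reads were recovered from FPKM and gene length (100% of non-zero values whole within 0.001). Intervals from reads cover counting error only.

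The test was limma 3.58.1 (R 4.3.3) on log2(FPKM + 1), two-sided, with a trended prior variance and no term but group, over all 12198 genes averaging 1 FPKM or more, with Benjamini-Hochberg adjustment and a threshold of 0.05. It was tested on simulated data drawn with the same spread for every gene and library, so unequal spreads were not covered. Members and lists were chosen with earlier results of these data known. The text names all 9 members, the 4 smallest adjusted p past the threshold and the highest gene of each list, and 3 genes most like Adamts1 and Timp3; others are said to be named after their values were seen. Some genes that the rule names are not reported here. Alternatives were other pseudocounts, filters, scales, variance models, voom, a replicate block and each library left out. Groups of 3 were too small for the check for outlying libraries. Python 3.11.15 read the promoter table of RefSeq (GRCr8).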

Additional observations from a re-analysis of the deposited data

How the results depend on the processing

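The number of genes past the threshold depended on single libraries: against 1754 with all 6, it was 345 to 2067 with 1 left out. It was 866 without an expression filter, 1019 without the variance trend and 3849 with array weights, the last with 1 library weighted at 3.69 and another at 0.451. The number of members past the threshold, 2, was 1 with a minimum of 5 FPKM, which left Adamts4 untested, 1 with the replicate block, and 1 to 2 with 1 library left out. It was 3 with array weights and with voom, where Timp2 also passed. In 2 of the settings with 2 members the pair was another: Adamts1 and Timp1 without a filter, and Adamts1 and Timp2 without EC replicate 1. Adamts1 passed in all 17 alternatives, with an adjusted p of at most 0.0063. Adamts4 also lost its call without a filter (adjusted p = 0.080). Changes near 0 turned sign: Adamts7 was -0.0011 with quantile normalization and -0.039 to 0.033 with 1 library left out, Adamts10 was 0.0049 with array weights and 0.0017 with voom, and Mmp19 was -0.048 to 0.067 with 1 library left out; none of these passed. For Timp1 and Adamts5, depth limits the precision. Deviations of libraries with the same replicate number correlated at 0.088, -0.095 and -0.020, within the -0.11 to 0.13 of the other pairs. With 3 libraries per group this does not show whether same-numbered libraries were handled together. With the number as a replicate block 1907 genes passed, and the adjusted p of Adamts4, Nid2, Hapln4 and Adam9 became 0.060, 0.051, 0.064 and 0.053. The cause of these shifts was not tested.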
